A study of Mus musculus with 4 samples.

Results

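The genes flanking Stmn1 on mouse chromosome 4 are 57 protein-coding genes that lie close to the gene encoding stathmin, with Stmn1 itself left out. In gene order, 44 lie on the side before Stmn1 and 13 on the side after it, in a stretch that holds 91 protein-coding genes besides Stmn1 in the RefSeq annotation. The list leaves out 34 of these 91 and was chosen with earlier results of these data known, so position alone did not set it. Of the 57, 54 were matched by accession to 75 probes of the arrays, out of 18951 named genes and 41168 probes in all, and Cnksr1, Nudc and Pigv had no matched probe. The RNA came from mammary glands of female mice at 13 weeks, before neoplasia, and every mouse carried the Δ16HER2 transgene, which encodes a shortened form of the HER2 receptor tyrosine kinase. One group was labelled wild type for stathmin (WT, arrays WT 1 and WT 2) and the other STM KO, the stathmin knockout (knockout 1 and knockout 2). The labels speak of separate samples and do not say that each came from its own animal, so every p-value measures the spread between these samples, which may be technical. The strain, the promoter of the transgene and the part of Stmn1 that was deleted are not given in the sources used here.

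Stathmin binds tubulin dimers and destabilises microtubules. Genes that lie near a targeted allele are inherited together with it through crosses, so the DNA around a knockout allele can come from the strain in which the allele was made. An array probe reads a gene through 1 short stretch of its transcript, so that probes of the same gene are separate readings. The genes described here share a neighbourhood and not a pathway, and they range from chromatin regulators to receptors, vesicle proteins and enzymes.

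The 4 arrays had 54.7% to 66.2% of spots well above background, and none saturated. Every level is a log2 signal from which the 75th percentile of its array was subtracted, and differences are knockout minus WT on that scale, so that 1 stands for 2-fold. All 9 luminal and all 7 basal epithelial markers of the labelled tissue were well above background on every array, as were 7 of 7 adipocyte and 9 of 9 skeletal muscle markers. Knockout 2 stood apart through lymphocyte genes. The 8 detected B cell markers averaged 3.31 there, with their mean over all arrays set to zero, against -0.75, -0.80 and -1.76 on WT 1, WT 2 and knockout 1. Proliferation markers instead split each group, at 1.01 and -1.03 in the WT group and 0.72 and -0.70 in the knockout group. Pax5 and Blk of the B cell list and Cd4 and Ncr1 of the T and NK cell list were clear of background on no array. In whole gland RNA, fewer cells of a type and less RNA per cell cannot be told apart.

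The promoters of 4 members are shown because these members stood at least 2-fold apart with an unadjusted p under 0.05 and have 1 listed start each. Each sequence runs 5′ to 3′ along the gene, from 250 bases before its start to 50 after it, from RefSeq on build GRCm38.p6. Capitals mark the GC box (GGGCGG or CCGCCC), the CCAAT box (CCAAT or ATTGG) and the TATA box (TATAAA or TTTATA), each searched on both strands.
Rab42, chr4:132303307-132303606, minus strand: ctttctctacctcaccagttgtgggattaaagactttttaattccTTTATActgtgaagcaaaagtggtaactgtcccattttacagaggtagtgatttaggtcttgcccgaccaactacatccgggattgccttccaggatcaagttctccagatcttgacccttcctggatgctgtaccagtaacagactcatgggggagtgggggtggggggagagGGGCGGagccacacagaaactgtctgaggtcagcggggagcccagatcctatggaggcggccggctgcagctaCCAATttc
Trnau1ap, chr4:132329489-132329788, minus strand: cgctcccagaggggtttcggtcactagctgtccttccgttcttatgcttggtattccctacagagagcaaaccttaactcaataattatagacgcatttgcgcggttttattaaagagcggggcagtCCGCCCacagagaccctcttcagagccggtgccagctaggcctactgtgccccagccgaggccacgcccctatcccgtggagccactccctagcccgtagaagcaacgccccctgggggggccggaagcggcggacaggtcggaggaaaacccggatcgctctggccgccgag
Trnp1, chr4:133498501-133498800, minus strand: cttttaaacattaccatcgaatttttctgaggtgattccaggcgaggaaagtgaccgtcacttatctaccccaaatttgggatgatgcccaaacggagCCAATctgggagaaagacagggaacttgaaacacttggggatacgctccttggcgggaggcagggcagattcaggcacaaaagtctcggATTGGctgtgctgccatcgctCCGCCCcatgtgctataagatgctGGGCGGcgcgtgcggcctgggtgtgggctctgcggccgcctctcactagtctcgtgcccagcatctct
Gpatch3, chr4:133574495-133574794, plus strand: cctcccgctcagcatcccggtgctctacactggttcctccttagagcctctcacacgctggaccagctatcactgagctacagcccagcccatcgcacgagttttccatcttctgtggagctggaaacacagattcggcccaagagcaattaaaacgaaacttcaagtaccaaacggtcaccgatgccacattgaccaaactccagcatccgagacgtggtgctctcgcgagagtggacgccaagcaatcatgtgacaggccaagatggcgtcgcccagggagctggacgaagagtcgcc
The Trnp1 stretch held 2 GC boxes and 2 CCAAT boxes, the Rab42 stretch 1 of each of the 3 motifs, the Trnau1ap stretch 1 GC box and the Gpatch3 stretch none of them. GC content was 51.7% for Rab42, 60.7% for Trnau1ap, 55.3% for Trnp1 and 56.3% for Gpatch3. In all, 54 members had 69 promoter entries. A GC box was in 63.8% of them, against 35.7% of 32851 entries in the table and 46.2% of the 21263 entries of protein-coding genes. A CCAAT box was in 42.0% of member entries and 37.4% of all, and a TATA box in 7.25% and 13.6%.

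Stmn1 itself had been read by a pair of probes that disagreed. The brighter probe read 5.59 and 3.59 on WT 1 and WT 2 and 4.56 and 3.34 on knockout 1 and knockout 2. The groups overlapped, and the difference of -0.64 ± 0.76 (SE, n = 2 per group) was smaller than the gap of 1.999 between the WT arrays. The dimmer probe read -1.13 and -3.39 on the WT arrays and -5.71 and -5.05 for knockout, where the probe was not well above background. Signal was clear of background on WT 1 only. With the knockout arrays raised to the lowest signal well above background, the WT mean was 4.88-fold higher. That fold keeps WT 2 at its own dim reading, so it is no strict minimum. WT 1 carried that value, which was 2.23-fold without it and 10.68-fold without WT 2. Where the deleted part lies relative to either probe is not known here, so the probes do not check the labels.

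None of the 62 tested probes of the flanking genes passed limma's test at an adjusted p under 0.05, and 0.0% of the 24183 probes tested across the array passed in either direction. At an unadjusted p under 0.05 there were 895 probes (3.7%) across the array. The members that stood farthest apart on that scale were Trnau1ap, Trnp1, Gpatch3, Rab42 and Cnr2 on the higher side and Pafah2 and Nipal3 on the lower side. With 1 probe per gene, the brightest, 47 members were tested. Of these 5 had an unadjusted p under 0.05 and were higher on the knockout arrays, where 1.14% of all 13234 tested genes were. There were 2 such members on the lower side, where the share over all genes was 2.4%. The 7 members make 14.9% of those tested, against 3.54% of all genes in both directions together. Rab42 and Cnr2 passed the filter on dim probes through the knockout arrays alone, so that they had to differ to be tested. Among the 45 members with a probe well above background on all 4 arrays, 3 were higher and 2 lower at that p, against 1.2% and 2.75% of genes filtered the same way. By size alone, 5 members were at least 2-fold higher (1.32% of all genes) and 2, Pafah2 and Dnajc8, at least 2-fold lower (1.78% of all genes).

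**Figure D1:**
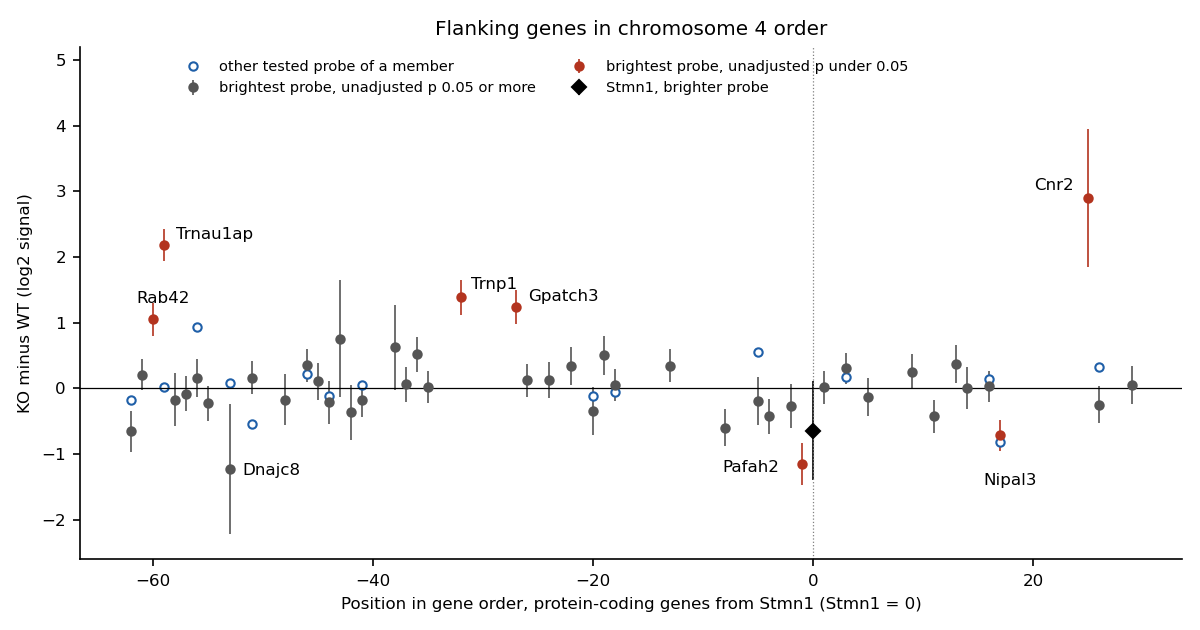
Difference between knockout and WT (log2 signal, vertical axis) of the tested member probes against their place in gene order, counted in protein-coding genes from Stmn1 (horizontal axis, Stmn1 = 0). Points are brightest probes with SE bars, open circles are other probes, and red marks an unadjusted p under 0.05; Pafah2, next to Stmn1, is at -1.15, and Trnau1ap, 59 genes away, is at 2.18 on its brightest probe and 0.02 on the other.

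Most flanking genes differed little. The median difference of the 47 members was 0.05, beside -0.01 for all tested genes, and 33 of the 47 (70.2%) stayed within 0.5 of zero, where 82.6% of all genes did. There were 28 positive and 19 negative differences, and among members well above background on every array the range ran from -1.23 for Dnajc8 to 2.18 for Trnau1ap. Both knockout arrays lay above both WT arrays for 13 members (27.7%, against 17.8% of all genes) and below them for 6 (12.8%, against 17.7%). Rab42 and Cnr2, tested only through the knockout arrays, are among the 13 and had to differ to be tested. Among the 45 members with a probe well above background on all 4 arrays, 11 lay above and 6 below. The share over all genes was not taken under that filter. For 16 of the 47 members, Rab42 among them, the difference between the groups was larger than the gap within either group, which held for 2964 of all 13234 genes (22.4%). The median gap between the arrays of 1 group was 0.21 for WT and 0.27 for knockout among the members, and 0.26 and 0.32 over all genes. Of the 75 member probes, 59 (78.7%) were well above background on every array, against 62.0% of all named probes.

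Pafah2, the first protein-coding gene before Stmn1, encodes an acetylhydrolase that cleaves platelet-activating factor and oxidised phospholipids. It read 2.28 and 2.01 on the WT arrays and 1.31 and 0.68 on the knockout arrays. Both knockout arrays were below both WT arrays, and the difference of -1.15 ± 0.32 (SE, n = 2 per group) corresponds to a 2.22-fold lower signal (unadjusted p = 0.0139, adjusted p = 0.935, limma). It was -0.83 without knockout 2 and -1.47 without knockout 1. Extl1, a glycosyltransferase of heparan sulfate synthesis and the second gene on that side, read -0.34 and -1.09 on the WT arrays and -0.89 and -1.08 on the knockout arrays. Its arrays overlapped.

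Slc30a2 encodes the zinc transporter ZnT2, which loads zinc into milk vesicles in secretory mammary cells. Its probe read -3.23 and -4.64 on the WT arrays and -4.61 and -5.50 on the knockout arrays, and it was not well above background on any of them. The milk markers, 9 detected of 9, were at 1.46 and 0.35 on the WT arrays and -1.55 and -0.26 on the knockout arrays relative to their mean. Glycam1 alone read 0.53, -4.75, -6.56 and 3.80 in array order, and the other 8 milk markers averaged 1.36, 0.77, -1.15 and -0.99. Of these 8, Xdh and Btn1a1 overlapped between the groups. The part of milk-producing cells in the Slc30a2 reading was not tested. Trim63, the muscle ubiquitin ligase MuRF1, read 2.52 and 2.51 on the WT arrays and 1.90 and 2.28 on the knockout arrays. Both knockout arrays were lower, by -0.43 ± 0.26 (SE) on average. The 9 skeletal muscle markers averaged 0.36 and 0.16 on the WT arrays and -0.39 and -0.13 on the knockout arrays. Ckm and Tnnt3 of that list were highest on knockout 2. Pvalb was lowest there, at 0.69 against 3.28 and 3.15 on the WT arrays. The part of muscle in the Trim63 reading was not tested.

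Pdik1l, a protein kinase gene, is the fifth gene on that side. Its brighter probe read -0.86 and -1.25 on the WT arrays and -1.65 and -0.84 on the knockout arrays. The other probe read -1.37, -2.53, -1.34 and -1.45 in the same order. The groups overlapped on both, and the differences of -0.19 and 0.55 had opposite signs.

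On the other side, the nearest gene showed almost no difference. Paqr7, a membrane progestin receptor, read -0.36 and -0.09 on the WT arrays and -0.25 and -0.16 for knockout, a difference of 0.02 ± 0.25 (SE). Mtfr1l, a mitochondrial fission regulator-like gene, read 3.54 and 3.70 on the WT arrays and 3.94 and 3.91 on the knockout arrays. Its difference was 0.31 ± 0.24, with no overlap, and its second probe gave 0.17. Man1c1, a Golgi mannosidase of N-glycan trimming, read 0.31 and 0.80 on the WT arrays and 0.29 and 0.57 on the knockout arrays. Tmem50a, a membrane protein gene, read 3.14 and 3.55 against 3.53 and 3.67. Both of these overlapped. Syf2, a splicing factor, read 0.43 and 0.27 on the WT arrays and -0.19 and 0.03 for knockout. It was lower on both knockout arrays, by -0.43 ± 0.25.

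Members were also taken by their order from Stmn1 on each side. The 10 nearest tested members before Stmn1 had a median of -0.23 and the 10 nearest after it 0.02, and the 27 farther members had 0.11. The split is by order within a side and not by equal distance. Cnr2, 25 genes after Stmn1, fell among the nearest, and Zdhhc18, 24 genes before it, among the farther members. At an unadjusted p under 0.05 there were 3 of the 20 nearest members (15.0%) and 4 of the 27 farther ones (14.8%), where 3.54% of all genes were. Cnr2 among the nearest and Rab42 among the farther members were tested only through the knockout arrays, where they were higher. Pafah2 and Nipal3, both lower, and Cnr2 were among the nearest, and the other 4, all higher, were among the farther members, 27 to 60 genes before Stmn1. None of these subsets was set against the others by a test.

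The 34 other protein-coding genes of the same stretch were looked at in the same way, and 20 of the 27 with a probe could be tested. Their median was 0.04, with 10 positive and 10 negative differences. Ifnlr1, a subunit of the interferon lambda receptor, read 0.99 and 0.89 on the WT arrays and 0.39 and 0.19 on the knockout arrays. Its groups did not overlap, and the difference was -0.65 ± 0.25 (SE, unadjusted p = 0.0436, adjusted p = 0.935, limma). In the rest of chromosome 4, 734 tested genes had a median of -0.03, and 3.81% had an unadjusted p under 0.05.

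Genes acting on RNA, DNA and nuclear transport included both members whose probes lay farthest apart. Of 10 tested, 5 were positive and 5 negative, and 2 had an unadjusted p under 0.05, both higher, a direction in which 1.14% of all genes passed. Trnau1ap encodes a protein that binds the selenocysteine transfer RNA. Its brightest probe, A_51_P475891, read 1.17 and 1.37 on the WT arrays and 3.36 and 3.55 on the knockout arrays. The WT arrays lay 0.201 apart and the knockout arrays 0.193, and the difference of 2.18 ± 0.25 (SE, n = 2 per group) is a 4.54-fold higher signal (unadjusted p = 0.000255, adjusted p = 0.935, limma). The second probe of the same gene, A_52_P193233, read 1.64 and 2.05 on the WT arrays and 2.03 and 1.70 on the knockout arrays. Those groups overlapped, at a difference of 0.02 ± 0.29. The first probe kept a difference between 2.08 and 2.28 when any 1 array was left out.

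Gpatch3, a gene of the G-patch family of nucleic acid binding proteins, read -2.53 and -2.52 on the WT arrays and -1.44 and -1.13 on the knockout arrays. Both knockout arrays lay above both WT arrays, with a difference of 1.24 ± 0.25 (SE), or 2.36-fold (unadjusted p = 0.00398, adjusted p = 0.935, limma). Gpn2, a GTPase gene and the next protein-coding gene in order, read -1.001 and -1.14 against -0.81 and -1.09, a difference of 0.12 ± 0.25. With normexp background correction, which adds a constant to every signal, the Gpatch3 difference was 0.29.

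Dnajc8, a J-domain chaperone associated with splicing, also had probes that disagreed. The brighter one read 3.50 and 3.36 on the WT arrays, 3.76 on knockout 1 and 0.65 on knockout 2. The low reading was on knockout 2 alone, and the difference went from -1.23 ± 0.99 (SE) to 0.33 without that array. The second probe read 1.85, 1.88, 2.04 and 1.86 in the same order, with no low value on knockout 2. Zfp593, a zinc finger gene, read 3.29 and 3.81 on the WT arrays and 2.98 and 2.92 for knockout, a difference of -0.60 ± 0.28. Ppp1r8, which encodes a nuclear inhibitor of protein phosphatase 1, differed by 0.35 and 0.22 on its probes, and the splicing coactivator gene Srrm1 by 0.01. Lin28a, whose product blocks maturation of let-7 miRNAs, read -4.35, -4.60, -4.81 and -4.23 in array order and was well above background on knockout 2 alone.

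Rcc1 and Rpa2 tracked the arrays rather than the groups. Rcc1, the nucleotide exchange factor of Ran, read -1.03 and -1.87 on the WT arrays and -1.29 and -1.95 on the knockout arrays. Rpa2, a subunit of the single-strand DNA binding replication protein A, read -0.96 and -1.84 against -1.32 and -1.82. In each group array 1 was the higher one for both genes, as it was for the mean of the proliferation markers and the brighter Stmn1 probe. Bub1 of the proliferation list went the other way in both groups, at -1.805, -1.402, -1.489 and -0.187 in array order. The part of proliferating cells in the Rcc1, Rpa2 and Stmn1 readings was not tested. The differences between groups were -0.17 ± 0.40 for Rcc1 and -0.17 ± 0.39 for Rpa2 (SE).

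**Figure D2:**
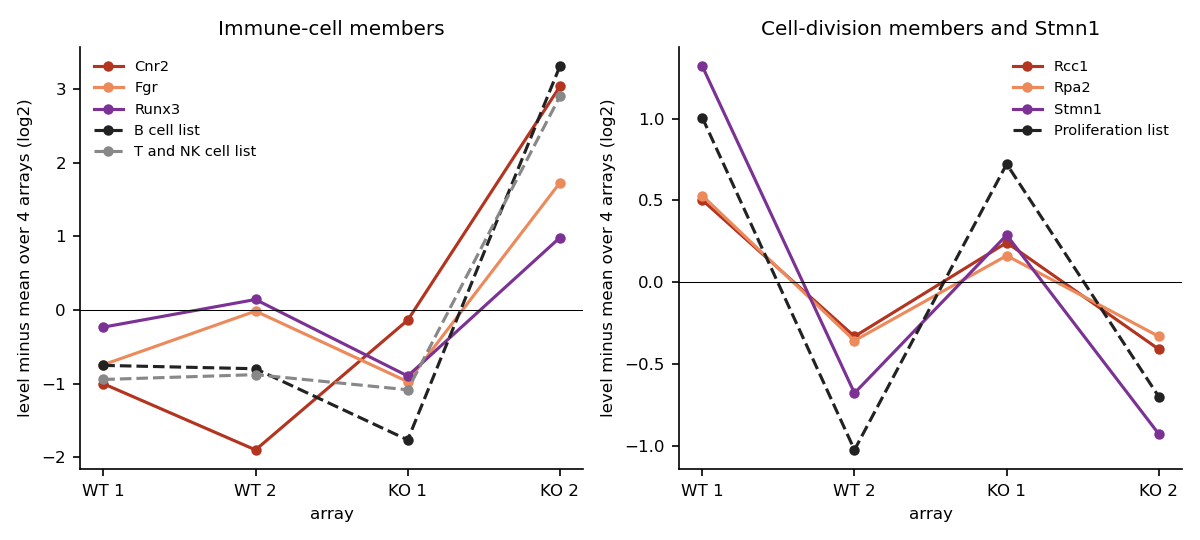
Level minus its mean over the 4 arrays (log2, vertical axis) on each array (horizontal axis), for members expressed in immune cells beside the lymphocyte marker lists (left) and for members of cell division and Stmn1 beside the proliferation list (right). On the left, Cnr2, Fgr and Runx3 are highest on knockout 2, where the B cell list is at 3.31; on the right, Rcc1, Rpa2 and the brighter Stmn1 probe are higher on array 1 than on array 2 of each group. Lines join values of 1 gene or list and imply no order of the arrays.

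Chromatin and transcription genes differed by less than 1 on every tested probe. Of 7 tested, 5 were positive and 2 negative, and none had an unadjusted p under 0.05. Arid1a, a DNA-binding subunit of the SWI/SNF remodelling complex, read 1.47 and 1.58 on the WT arrays and 2.14 and 1.61 on the knockout arrays. The groups did not overlap, but most of the difference of 0.34 ± 0.29 (SE) came from knockout 1. Gmeb1, which binds glucocorticoid modulatory elements, had differences of -0.66 ± 0.31 and -0.18 ± 0.24 on its probes. Hmgn2, a nucleosome-binding protein gene, gave 0.50 ± 0.29, with both knockout arrays higher. Taf12, a TFIID subunit, gave 0.21, and the transcription factor gene Ahdc1 gave -0.36. Eya3, a transcription coactivator and phosphatase, gave 0.16 and -0.54 on its tested probes. A further Eya3 probe read -4.26, -3.81, -4.36 and -3.67 and was clear of background on 1 knockout array. Med18, a Mediator subunit, gave 0.16 on its brighter probe. Its dimmer probe read -3.29 and -4.09 on the WT arrays, where it was not well above background, and -3.01 and -2.49 on the knockout arrays. The knockout mean of that probe was at least 1.72-fold higher, or 1.435-fold without knockout 2. Nr0b2, the orphan receptor SHP, read -3.61 and -4.54 against -6.94 and -4.84. It was well above background on WT 1 alone. With the knockout arrays raised to the lowest signal well above background, the WT mean was 1.38-fold higher, or 1.002-fold without WT 1. WT 2 was kept at its own dim reading, so neither fold is a strict minimum.

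Kinases, receptors and signalling genes held the member with the widest range over arrays. Cnr2, the cannabinoid receptor of immune cells, read -4.59 and -5.49 on the WT arrays, where it was not well above background, -3.72 on knockout 1 and -0.55 on knockout 2. The plain difference was 2.90 ± 1.04 (SE, unadjusted p = 0.0371, adjusted p = 0.935, limma), and it used WT readings not clear of background. With the WT arrays raised to the lowest signal well above background, the knockout group stood at least 3.62-fold higher. That bound rested on knockout 2, since it was 10.9-fold without knockout 1 and 1.2-fold without knockout 2. With normexp background correction the log2 difference was 0.35. The second Cnr2 probe read -4.83, -5.87, -6.83 and -3.76 in array order and was dim on every array. Fgr, a Src-family kinase of myeloid and B cells, read -3.92 and -3.19 on the WT arrays, -4.15 on knockout 1 and -1.45 on knockout 2. Runx3, a transcription factor of T and NK cells, read -3.46 and -3.09 on the WT arrays, -4.13 on knockout 1 and -2.25 on knockout 2 on its brighter probe. That brighter probe was well above background on WT 1 and knockout 2 only and was not tested. The other Runx3 probe, at -4.02, -4.43, -5.29 and -4.11, was clear of background on no array. Cnr2, Fgr and Runx3 were highest on knockout 2 on their brighter probes, where 8 of 10 B cell markers and 10 of 12 T and NK cell markers were well above background, against 3 to 6 and 4 to 9 on the other arrays. Cd52, a lymphocyte surface gene of the same stretch, read 1.01, 0.63, 0.44 and 4.02 in array order. The part of lymphocyte content in these readings was not tested.

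Rab42, a small GTPase gene of the Rab family, read -3.53 and -3.66 on the WT arrays and -2.39 and -2.69 on the knockout arrays. Signal was clear of background in the knockout group only, where the mean was 2.07-fold higher (unadjusted p = 0.0083, adjusted p = 0.935, limma). That is the plain fold between the group means. It uses WT readings that were not well above background, so it is no strict minimum. The fold was 1.87 without knockout 1 and 2.30 without knockout 2. With normexp background correction the difference was 0.05 in place of 1.05. Rab42 is the next protein-coding gene to Trnau1ap in the order. Map3k6, a stress-activated MAP kinase kinase kinase, read -0.22 and 1.66 on the WT arrays and 1.59 and 1.09 on the knockout arrays. WT 1 alone was low. Rps6ka1, which encodes the ERK-activated kinase RSK1, differed by -0.34 ± 0.36 and -0.12 ± 0.27 (SE). Sesn2, a stress-induced inhibitor of mTORC1 signalling, gave -0.23. Rcan3, a calcineurin regulator, gave 0.03 on its brighter probe, and Wdtc1, a WD repeat gene linked to fat storage, gave 0.02 on its brighter probe. Its dimmer probe read -3.19 and -4.34 on the WT arrays and -5.44 and -4.36 on the knockout arrays, lower on both. It was clear of background on WT 1 only. With the knockout arrays raised as for Nr0b2 and WT 2 kept at its dim reading, the WT mean was 1.72-fold higher, or 1.15-fold without WT 1. These folds are no strict minimum either.

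**Figure D3:**
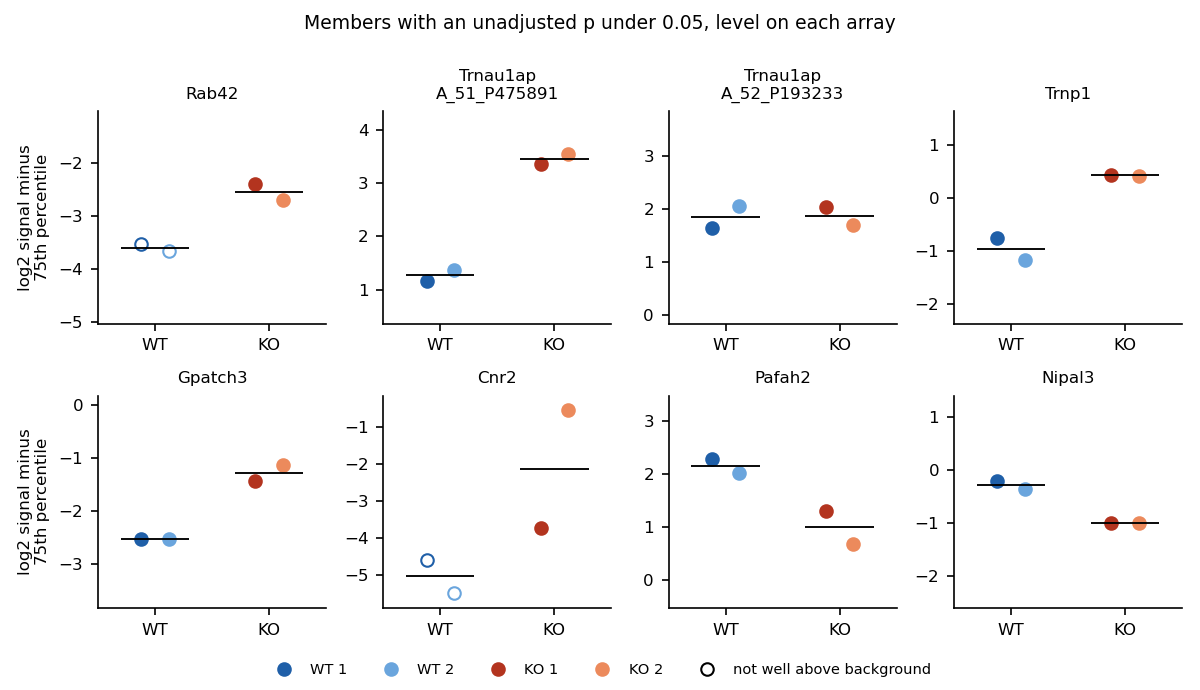
Level of each member with an unadjusted p under 0.05 (log2 signal minus the 75th percentile, vertical axis, each panel on its own range) in the WT and knockout groups (horizontal axis), with both Trnau1ap probes shown. Points are arrays, open where not well above background, and lines are group means; Trnau1ap stands at 1.17 and 1.37 against 3.36 and 3.55 on one probe and overlaps on the other, and Cnr2 is spread from -3.72 to -0.55 within the knockout group.

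Cytoskeleton, membrane traffic and organelle genes stood closest to zero. All 7 tested members lay within 0.5 of it, from -0.17 to 0.37, and none had an unadjusted p under 0.05. Wasf2, the WAVE2 subunit that drives branched actin assembly, read 4.38 and 4.64 on the WT arrays and 4.24 and 4.44 on the knockout arrays. Sh3bgrl3, a small thioredoxin-fold protein gene, gave 0.35 ± 0.25 (SE), and Clic4, a chloride intracellular channel protein gene, 0.37 ± 0.29. Both had no overlap between groups on these probes. A dimmer Clic4 probe went the other way, at -3.30 and -3.11 on the WT arrays and -4.59 and -3.54 on the knockout arrays, without overlap. That probe was well above background on WT 1 and knockout 2 only and was not tested. Phactr4, which binds actin and protein phosphatase 1, gave -0.08 on 1 probe, and its other probe, at -5.10, -4.58, -5.58 and -4.46, was clear of background on no array. The endosomal syntaxin gene Stx12 gave 0.11 and the Rab27 effector gene Sytl1 gave 0.06. The centrosomal gene Cep85 read -3.62, -4.80, -4.54 and -3.54 in array order and was well above background on WT 1 and knockout 2 only. Ubxn11, a UBX domain gene, read -5.10, -4.87, -5.95 and -5.53 and was clear of background on no array.

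Lipid, glycan and transport enzymes had 5 negative and 3 positive differences among 8 tested. Beside Pafah2, Nipal3 was the member that stood apart. It encodes a protein of the NIPA magnesium transporter family, and both of its probes were tested. The brighter probe read -0.21 and -0.37 on the WT arrays and -1.003 and -0.999 for knockout, a difference of -0.71 ± 0.24 (SE, unadjusted p = 0.0291, adjusted p = 0.935, limma). The other read -0.47 and -0.59 against -1.59 and -1.11, a difference of -0.82 ± 0.28 (unadjusted p = 0.0302, adjusted p = 0.935, limma). Both probes were lower on both knockout arrays and their differences lay 0.107 apart. With normexp background correction the brighter probe's difference was -0.44. Fuca1, a lysosomal fucosidase, gave -0.25 and 0.33 on its probes. Dhdds, an enzyme of dolichol synthesis, gave 0.05 and -0.06, the palmitoyltransferase gene Zdhhc18 gave 0.13 and the acyl-protein thioesterase gene Lypla2 gave 0.05. Smpdl3b, a sphingomyelinase-like phosphodiesterase gene, read -3.37, -3.41, -3.48 and -4.63 and was well above background on WT 1 and knockout 1 only.

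The remaining members have less settled roles. Trnp1, a nuclear protein known from neural progenitors, read -0.75 and -1.17 on the WT arrays and 0.44 and 0.40 on the knockout arrays. The groups did not overlap, and the difference of 1.39 ± 0.27 (SE) corresponds to 2.61-fold (unadjusted p = 0.0031, adjusted p = 0.935, limma). It stayed between 1.18 and 1.60 when any 1 array was left out, and was 1.08 with normexp background correction. Trnp1 has 1 probe, so no second reading was at hand. Tmem222, a membrane protein gene, read 0.29 and 0.63 on the WT arrays and 1.104 and 0.86 on the knockout arrays, with no overlap. Fam76a gave -0.21 and -0.12 on its probes.

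Probes of the same gene gave a second view of the neighbourhood. Of 15 members with 2 or more tested probes, 2 (Trnau1ap and Dnajc8) had probes whose differences lay more than 1 apart, which is 13.3% against 4.38% of all 4495 such genes. By a gap over 0.5 there were 6 (40.0%, against 27.7%), the others being Med18 at 0.78, Pdik1l at 0.74, Eya3 at 0.70 and Fuca1 at 0.57. The second Med18 probe was tested through the knockout arrays alone, where it was higher, so that its gap was set in part by the filter. Over probes well above background on all 4 arrays, 5 of 14 members (35.7%) had a gap over 0.5, against 25.2% of 3959 genes, and 2 (14.3%) a gap over 1, against 3.18%. The median gap was 0.22 for the members and 0.30 for all genes. The pair for Trnau1ap was 2.16 apart with tight arrays in each group, and the pair for Dnajc8 was 1.31 apart through knockout 2. Of the 7 members with an unadjusted p under 0.05, Nipal3 had a second tested probe that gave a like difference, Trnau1ap had one that did not, Cnr2 had a second probe that was dim on every array, and Rab42, Trnp1, Gpatch3 and Pafah2 had 1 probe each. Probe sequences and genotypes of the flanking region were not analysed here, so a base difference under a probe and an allele inherited with the targeted locus were not tested.

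**Figure D4:**
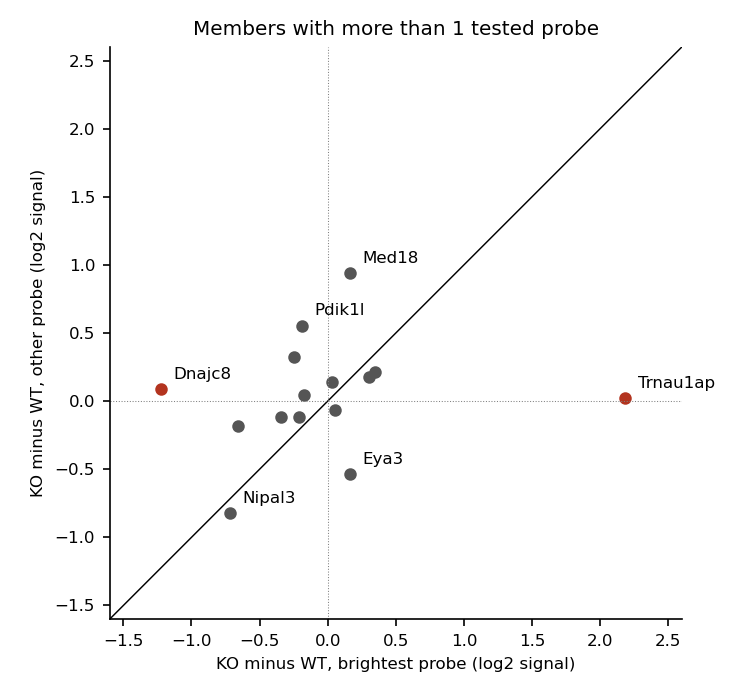
Difference between knockout and WT (log2 signal) on the brightest probe (horizontal axis) and on the other tested probe (vertical axis) of the 15 members with more than 1 tested probe. The line marks equal differences, and red marks pairs more than 1 apart; Trnau1ap lies at 2.18 and 0.02, and Nipal3 at -0.71 and -0.82, near the line.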

How the data were processed

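Total RNA of 4 mammary gland samples was labelled with Cy3 and hybridised to 1-colour Agilent mouse arrays on 1 slide, per the labels and file headers, so no slide or scan batch could be tested. The authors deposited spot intensity files. Processed signal intensities came from Agilent Feature Extraction (10.7.3.1 per the submitters' processing notes, but 11.5.1.1 per the file headers), with background subtracted on each array. The authors also deposited a log2 table, ascribed to GeneSpring in the series' design text. Setting it against the scanner values showed quantile-normalized log2 signals with the median of each probe removed (Pearson r of at least 0.99999, median absolute difference of at most 0.00031). Its column medians were -0.018, 0.0183, 0.00626 and -0.00958, and neither scale, centring nor direction stays unknown.

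The main values were log2 processed signals minus each array's 75th percentile (191, 144, 291 and 160 for WT 1, WT 2, knockout 1 and knockout 2). Control spots and 35 to 73 outlier spots per array were left out, as were 6 probes lost on an array, and replicate spots were averaged. Tests took in the probes that were well above background on 2 of 2 arrays in either group. Accessions were matched to NCBI RefSeq (GRCm38.p6), which named 27812 probes and left 13356 unnamed. The arrays' own annotation names no build, so members are placed by gene order, and coordinates are given only for RefSeq sequences. The comparison used lmFit and eBayes of limma 3.58.1 (R 4.3.3). Adjusted p-values follow Benjamini and Hochberg over the 24183 probes tested, with 0.05 as the threshold, and the calculation was tested on simulated data. Bounds ("at least"), and the like folds of Stmn1, Nr0b2 and Wdtc1, set the bright group's mean against, per array of the other group, the higher of the probe's own signal and the lowest signal of any spot well above background. The bright group's readings were kept as they stand, also on an array not well above background, where the fold is no strict minimum. The normexp alternative used the median spot signal, because the mean is not among the columns.

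The members, role groups, marker lists and rules were chosen with earlier results of these data known. By the rule for named genes, array values are given in full for members with an unadjusted p under 0.05, a fold of at least 2, probes more than 1 apart, a group not well above background, or a place among the 5 nearest members on either side. Some values of other members are given in addition, chosen after they were seen. One result on another gene of the stretch is not reported here. No p is given for a list, and the array number limits the precision of every value.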

Additional observations from a re-analysis of the deposited data

How the results depend on the processing

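All alternatives were planned, except the bounds with an array left out, the probe gaps over 0.5 on probes above background on all 4 arrays and the milk list without Glycam1, which were chosen after seeing the data. With 2 arrays per group, a fit without 1 of them has to borrow that group's spread from the other group. The lowest adjusted p of the 21 probes followed here was 0.1003 over all alternatives. Across the array 1 probe was higher and 3 were lower with each array's median as the scale, where the all-gene median was 0.188, and the cause was not tested. That scale moved the members' median from 0.05 to 0.245 and left 0 members lower at an unadjusted p under 0.05. Normexp correction gave a median of -0.055, with 3 members higher at that p and 12 with both knockout arrays below both WT arrays, and its added constant shrinks differences of dim probes by construction. Requiring signal above background on all 4 arrays left 3 higher members, and testing without a filter on dim probes left 1 lower member and gave 5 members with probes over 1 apart. Leaving out 1 array gave 0 to 3 lower members at that p (0 without WT 1 and 1 without WT 2). It gave 12 to 16 members whose knockout arrays lay below and 17 to 21 above, by construction of fewer arrays. Arrays with the same replicate number had deviations correlated at 0.0648, and the labels tie nothing to the number. With the replicate block, 5 members were higher and 1 lower at that p. Of 145 differences of single probes with all arrays kept, 141 kept their direction and 4 reversed. These were the second Trnau1ap probe (-0.00508 with quantile normalization and -0.00463 in the authors' deposited table), Pdik1l (0.00283) and Man1c1 (0.067), both with the median scale. Of 84 with 1 array left out, 72 kept direction and 12 reversed. The ranges were -0.18 to 0.23 for the second Trnau1ap probe, -2.78 to 0.33 and -0.00478 to 0.18 for Dnajc8, and -0.60 to 0.22 and -0.0289 to 1.14 for Pdik1l. They were -0.65 to 0.11 for Extl1, -0.12 to 0.16 for Paqr7 and -0.37 to 0.11 for Man1c1.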

Other observations

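Marker lists that no flanking gene was set beside, and the T and NK cell list, are given here. Values are on WT 1, WT 2, knockout 1 and knockout 2 in that order, each relative to its mean over the arrays. Luminal epithelial markers were at 0.30, 0.14, 0.19 and -0.64, and basal markers at 0.33, -0.07, 0.13 and -0.39, so both were lowest on knockout 2. Fibroblast markers were at 0.28, 0.28, -0.26 and -0.29 and endothelial markers at 0.25, 0.17, -0.17 and -0.25, with both list means lower on both knockout arrays. Of the endothelial list, Cdh5, Kdr and Erg were lower on both, but Pecam1 was highest on knockout 2 and Tek on knockout 1. Adipocyte markers were at -0.34, 0.25, 0.07 and 0.03. Macrophage and granulocyte markers were at -0.72, 0.66, -0.37 and 0.43, and T and NK cell markers at -0.94, -0.88, -1.08 and 2.90.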
